A study of Mus musculus with 4 samples.

Results

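The subject is the Hoxa cluster of the mouse as a looping locus in the uterus. Its members are the chromatin loops with an anchor that overlaps mm10 chromosome 6 from 52150000 to 52265000, the stretch that holds Hoxa3, Hoxa4, Hoxa5, Hoxa6, Hoxa7, Hoxa9, Hoxa10, Hoxa11 and Hoxa13. There were 54 such loops among the 59353 loops of 4 lists. Vehicle replicate 2 had 14 of them, vehicle replicate 3 had 11, the progesterone library had 12 and the ERα knockout library had 17.

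The loops were called from Hi-C, an assay that joins and sequences DNA segments lying close together in the nucleus, on whole uteri of C57BL/6J females older than 10 weeks. All mice had been ovariectomised and rested for 10 to 14 days, and tissue was frozen 1 h after a single injection. Wild-type mice were given saline, 100 ul into the abdominal cavity (vehicle, 2 libraries, replicates 2 and 3). Progesterone mice (1 library, replicate 2) were given 1 mg of the hormone subcutaneously, dissolved in 100 ul of sesame oil, so progesterone and vehicle also differ in carrier and route. The knockout library (1 library) carried the genotype label Ex3aERKO, a line without estrogen receptor alpha, and received saline. The labels do not say whether a library held 1 uterus or a pool, or whether the vehicle replicates came from separate animals. A whole uterus mixes epithelium, stroma, muscle and vessels, and loop positions carry no expression, so the tissue label could not be checked against marker genes.

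Each list gives the 2 anchors of every loop as bins of 5, 10 or 25 kb, with no contact counts. Depth and loop strength are therefore unknown, a loop missing from a list may still exist, and with 1 library each for progesterone and the knockout no test was made between conditions. The lists differ in length, at 16387, 9385, 11752 and 21829 loops in the order vehicle replicates 2 and 3, progesterone, knockout. Bins of 5 kb made up 58.7%, 42.1%, 49.6% and 64.8% of the lists, which sets how finely an anchor can be placed in each.

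Hox genes encode homeodomain transcription factors, and their order along the chromosome follows the order of their expression along the body axis. In the female tract Hoxa9 marks the future oviduct, Hoxa10 and Hoxa11 the uterus, and Hoxa13 the cervix and upper vagina. Hoxa10 and Hoxa11 are required for implantation, and Hoxa10 responds to ovarian steroids. The genes of the cluster are switched by distant enhancers on both of its sides, and bound CTCF, which stops cohesin and thereby anchors loops, divides the cluster into domains that face one side or the other.

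All Hoxa genes with an entry in RefSeq's promoters for GRCm38.p6 (mm10) are on the minus strand (8 of the 9 genes, without Hoxa4). Coordinates therefore rise from Hoxa3 to Hoxa13 against the direction of transcription. The side with lower coordinates leads to Skap2, Snx10 and Npvf, and the side with higher coordinates leads to Evx1, Tax1bp1 and Jazf1.

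The 3 promoters below are shown because the cluster anchors of some Skap2-side loops lay over Hoxa9 in some libraries and over Hoxa10 and Hoxa11 in others. Each is the 250 bases before the start site on the minus strand, 5′ to 3′, from RefSeq on GRCm38.p6. Capitals mark a match to a CTCF core motif of 12 positions, which occurs on either strand in 8.61% of 32851 promoter windows of 300 bases.
Hoxa9, chr6:52227371-52227620: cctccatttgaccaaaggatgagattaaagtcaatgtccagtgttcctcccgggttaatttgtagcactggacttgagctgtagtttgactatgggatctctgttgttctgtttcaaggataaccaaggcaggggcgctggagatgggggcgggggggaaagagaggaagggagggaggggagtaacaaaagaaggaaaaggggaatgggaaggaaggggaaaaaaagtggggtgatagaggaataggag
Hoxa10, chr6:52240855-52241104: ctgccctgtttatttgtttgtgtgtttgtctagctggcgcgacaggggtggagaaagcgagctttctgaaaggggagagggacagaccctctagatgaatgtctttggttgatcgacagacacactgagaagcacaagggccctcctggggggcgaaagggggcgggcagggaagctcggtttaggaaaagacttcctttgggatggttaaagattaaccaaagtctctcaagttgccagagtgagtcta
Hoxa11, chr6:52245811-52246060: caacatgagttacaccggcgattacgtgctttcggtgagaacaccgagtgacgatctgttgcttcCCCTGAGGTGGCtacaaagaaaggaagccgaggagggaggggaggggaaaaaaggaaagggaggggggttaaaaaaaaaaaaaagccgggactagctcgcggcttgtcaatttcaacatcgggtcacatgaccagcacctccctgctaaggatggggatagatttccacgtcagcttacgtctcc

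Of 9 promoter windows of the Hoxa genes, 1, that of Hoxa11, held the CTCF core, on the coding strand from 52245984 to 52245995 and 173 bases before the start site. None of the 9 held the estrogen response element (the perfect palindrome with any 3 spacer bases), found in 0.07% of all promoter windows on either strand, or the progesterone response element (the palindrome shared by steroid receptors of its class), found in 0.475%. These letters describe promoter windows only, since the sequence of the rest of each anchor was not used here. The Hoxa9 window lay in the anchors of 6, 2, 4 and 4 loops in vehicle replicates 2 and 3, progesterone and the knockout. The Hoxa10 window at its upstream start lay in 0, 4, 0 and 5, and the Hoxa11 window in 0, 3, 0 and 3. Every knockout anchor over the Hoxa11 window was the 25 kb bin from 52225001 to 52250000, and its 5 kb anchors at 52240001 to 52245000 stopped short of it. In vehicle replicate 3 the anchors were that bin and 10 kb bins from 52240001 to 52250000. A second Hoxa10 start, whose 250 bases upstream run from 52234940 to 52235189, lay in 0, 1, 1 and 5, with vehicle replicate 3 no different from progesterone. Here the vehicle replicate 3 anchor and some of the knockout anchors were the 25 kb bin from 52225001 to 52250000.

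The gap between Hoxa9 and Hoxa10 holds Mir196b (chromosome 6, 52230081 to 52230165), whose microRNA represses Hox messages. This gene lies between the anchors at 52225001 to 52230000 and at 52240001 to 52245000 described below, while some other anchors cover it. The mature 5p arm is shown beside that of Mir196a-1 and Mir196a-2 of the Hoxb and Hoxc clusters, with the seed (bases 2 to 8) in capitals.
miR-196b-5p: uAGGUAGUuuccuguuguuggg
miR-196a-5p: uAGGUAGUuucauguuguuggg
The seed is shared and 21 of the 22 bases are identical. Anchors covered Mir196b in 0 loops of vehicle replicate 2, 1 of vehicle replicate 3, 1 of progesterone and 5 of the knockout. The vehicle replicate 3 anchor was the 25 kb bin from 52225001 to 52250000. So were those of the knockout loops with far anchors at 48550001, 50650001 and 55200001.

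The loops of the cluster were long and ran mostly to the Skap2 side. Of the 54 loops, 41 had their far anchor at lower coordinates, 11 at higher coordinates, and 2 lay wholly inside the cluster. By library, 10, 9, 10 and 12 loops ran to the Skap2 side and 3, 2, 2 and 4 to the Jazf1 side. Median lengths were 647.5, 825, 710 and 825 kb, against 185, 200, 190 and 150 kb over all loops of the same lists. Loops over 500 kb made up 71.4%, 72.7%, 83.3% and 76.5% of the Hoxa loops, and 18.4%, 17.7%, 18.4% and 16% of all loops.

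**Figure D1:**
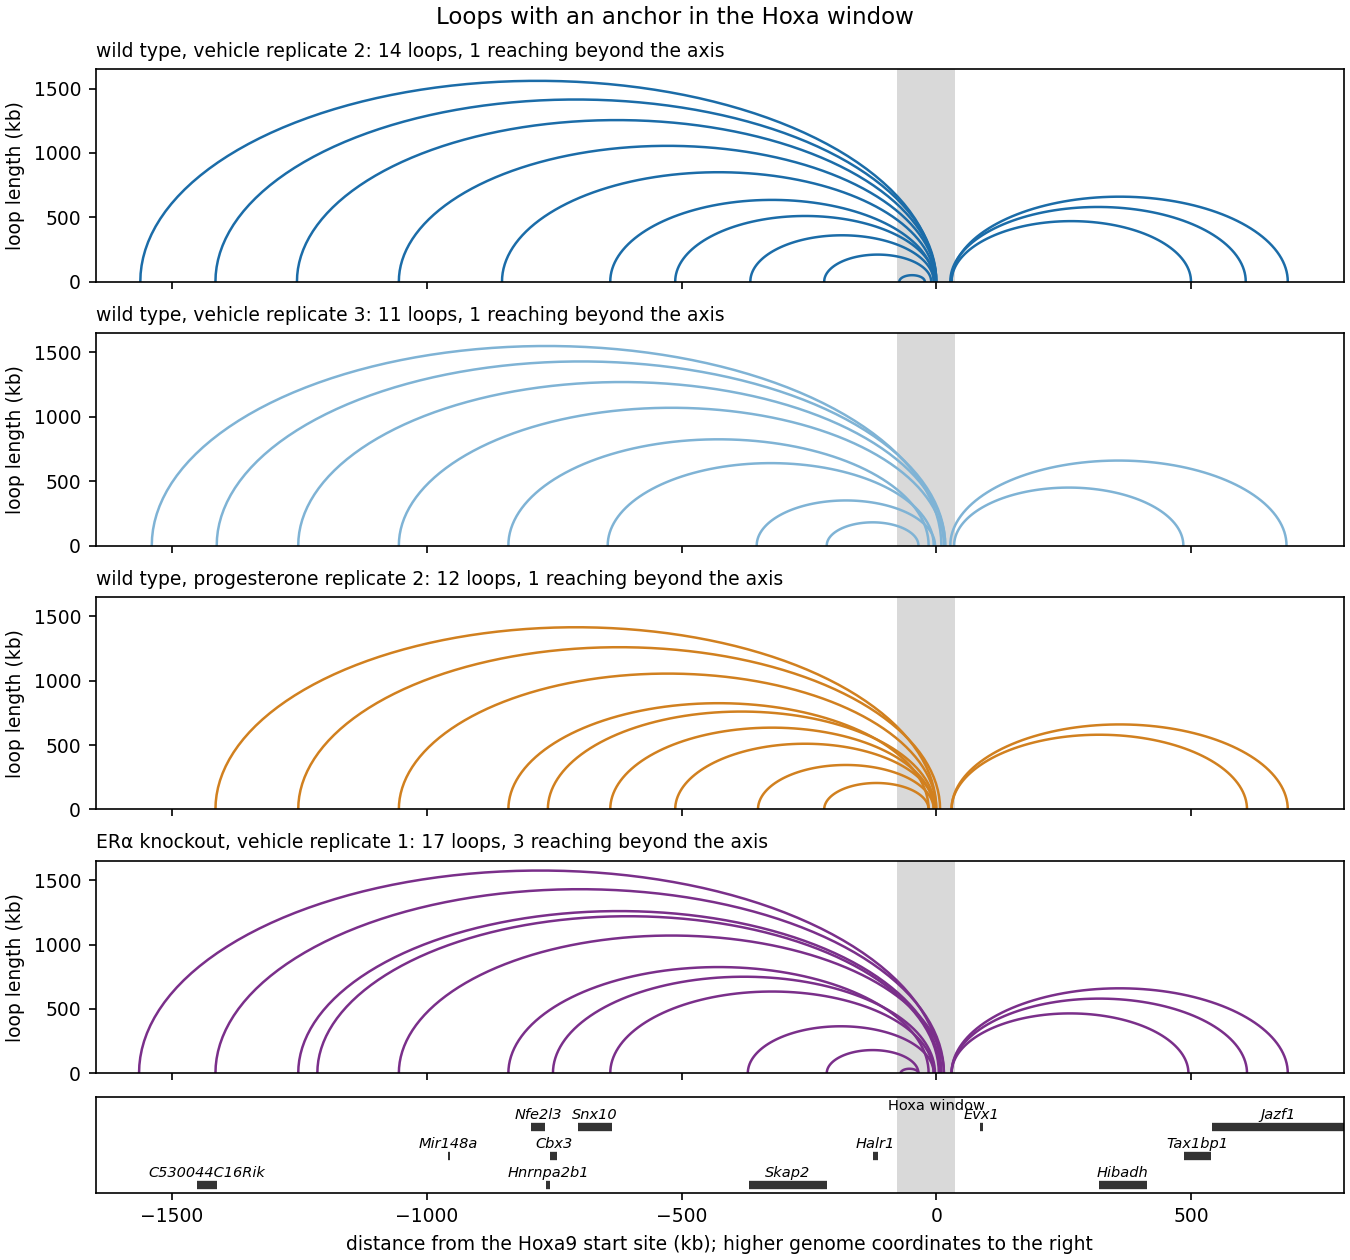
Loops with an anchor in the Hoxa window (grey band), 1 panel a library; the horizontal axis is the distance from the Hoxa9 start site in kb, the height of an arc is the loop length in kb, and bars at the bottom are neighbouring genes. Arcs from the Skap2 side number 10, 9, 10 and 12 in the 4 lists (those beyond the axis included), and the arcs drawn from the Jazf1 side meet the cluster near its right edge (the Mindy4 loop of the knockout, which does not, lies beyond the axis).

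The far ends fell into 17 sites when far anchors no more than 10 kb apart were joined, 13 on the Skap2 side and 4 on the Jazf1 side. Of these 17 sites, 9 had a loop to the window in all 4 libraries. A site counts here even where its cluster anchors lie apart, and no like share was counted for sites elsewhere. With both anchors matched, 5 of 14 loops of vehicle replicate 2 were in all lists, against 39.0% of all its loops. No site had more than 1 loop to the window in any library, though whether neighbouring calls were merged before deposit is not known, and merging would leave 1 position a site. Of the 52 far anchors outside the window, 31 lay over a protein-coding gene and 21 over none.

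Close to the cluster, the far sites lay in Skap2, a gene for an adaptor protein of immune cells (51859165 to 52012549). The nearest site, at 52005001 to 52015000 around the Skap2 start, was looped in all 4 libraries by 5 kb bins. Its cluster anchor began at 52215001 in vehicle replicate 2, over Hoxa7, and at 52210001 after progesterone, over the long Hoxa3 transcript and no other Hoxa member. In vehicle replicate 3 and in the knockout it began at 52190001, over Hoxa4. The libraries thus fell into pairs that lay 15 kb or more apart between anchor edges, and each pair joined unlike conditions. The far anchor moved with it by 1 bin, from 52005001 in vehicle replicate 2 and progesterone to 52010001, which holds the Skap2 start, in vehicle replicate 3 and the knockout. The site at the other end of Skap2, from 51855001 to 51880000, met the cluster at 52220001, over the end of Hoxa9, in all 4 lists. Except in vehicle replicate 3, with a 10 kb bin, that anchor was 5 kb wide and stopped short of the Hoxa9 start at 52227370. The far anchor of this site began at 51860001, 51870001, 51875001 and 51855001 in vehicle replicates 2 and 3, progesterone and the knockout.

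Beyond Skap2 lies Snx10, a sorting nexin gene. The site at 51580001 to 51590000, in the end of Snx10 away from its start, was looped to 52220001 to 52225000 in all 4 libraries, in 5 kb bins and with no shift of the cluster side. That bin holds the end of Hoxa9 and stops short of its start at 52227370. The site at 51710001 to 51720000, over no protein-coding gene, was looped to 52220001 to 52230000 in vehicle replicate 2 and after progesterone alone. The site at 51460001 to 51480000 was looped to the same 10 kb at Hoxa9 after progesterone and in the knockout. Its far anchor lay over Hnrnpa2b1, an RNA-binding protein gene, after progesterone, and in the knockout 1 bin further on, over the facing starts of Hnrnpa2b1 and Cbx3, a heterochromatin protein gene. The site at 51370001 to 51400000, between Gm38821 and Nfe2l3, was looped in all 4 libraries, to 52220001 to 52230000 in vehicle replicate 2 and to 52200001 to 52225000, a 25 kb bin from Hoxa5 to Hoxa9, in the other lists.

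Farther out, between Npvf and Gm38821, 3 sites looped to the cluster in all 4 libraries, and their cluster anchors differed between libraries by up to 15 to 17.5 kb (midpoints), against 25 kb at the Skap2 start. The site at 51170001 to 51175000 was called in 5 kb bins in every list. Its cluster anchor was 52225001 to 52230000, over the start of Hoxa9, in vehicle replicate 2 and after progesterone. It was 52240001 to 52245000, over the upstream start of Hoxa10 (not its second start) and the end of Hoxa11, in vehicle replicate 3 and the knockout. The far anchor was the same bin in each, and the cluster anchors of the pairs of libraries did not overlap, with a gap of 10 kb.

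The site at 50810001 to 50820000, in the long noncoding RNA gene C530044C16Rik, divided the libraries the same way. Vehicle replicate 2 and progesterone had its cluster anchor at 52225001, vehicle replicate 3 and the knockout at 52240001. The site at 50970001 to 50980000 ended at 52225001 in vehicle replicate 2 and at 52240001 in vehicle replicate 3, with progesterone and the knockout both at 52230001. Here the progesterone and knockout anchors were the same 10 kb in Hoxa10 and lay between the vehicle anchors. The site at 50650001 to 50700000 was looped to 52220001 in vehicle replicate 2 and to a 25 kb bin from 52225001 in vehicle replicate 3 and the knockout, with no loop listed after progesterone. Its far anchor covered Npvf, a neuropeptide gene, in the knockout, and lay 5.6 and 20.6 kb past that gene in vehicle replicates 2 and 3. A site at 51010001 to 51015000 was looped to 52230001 to 52235000, in Hoxa10, in the knockout alone.

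**Figure D2:**
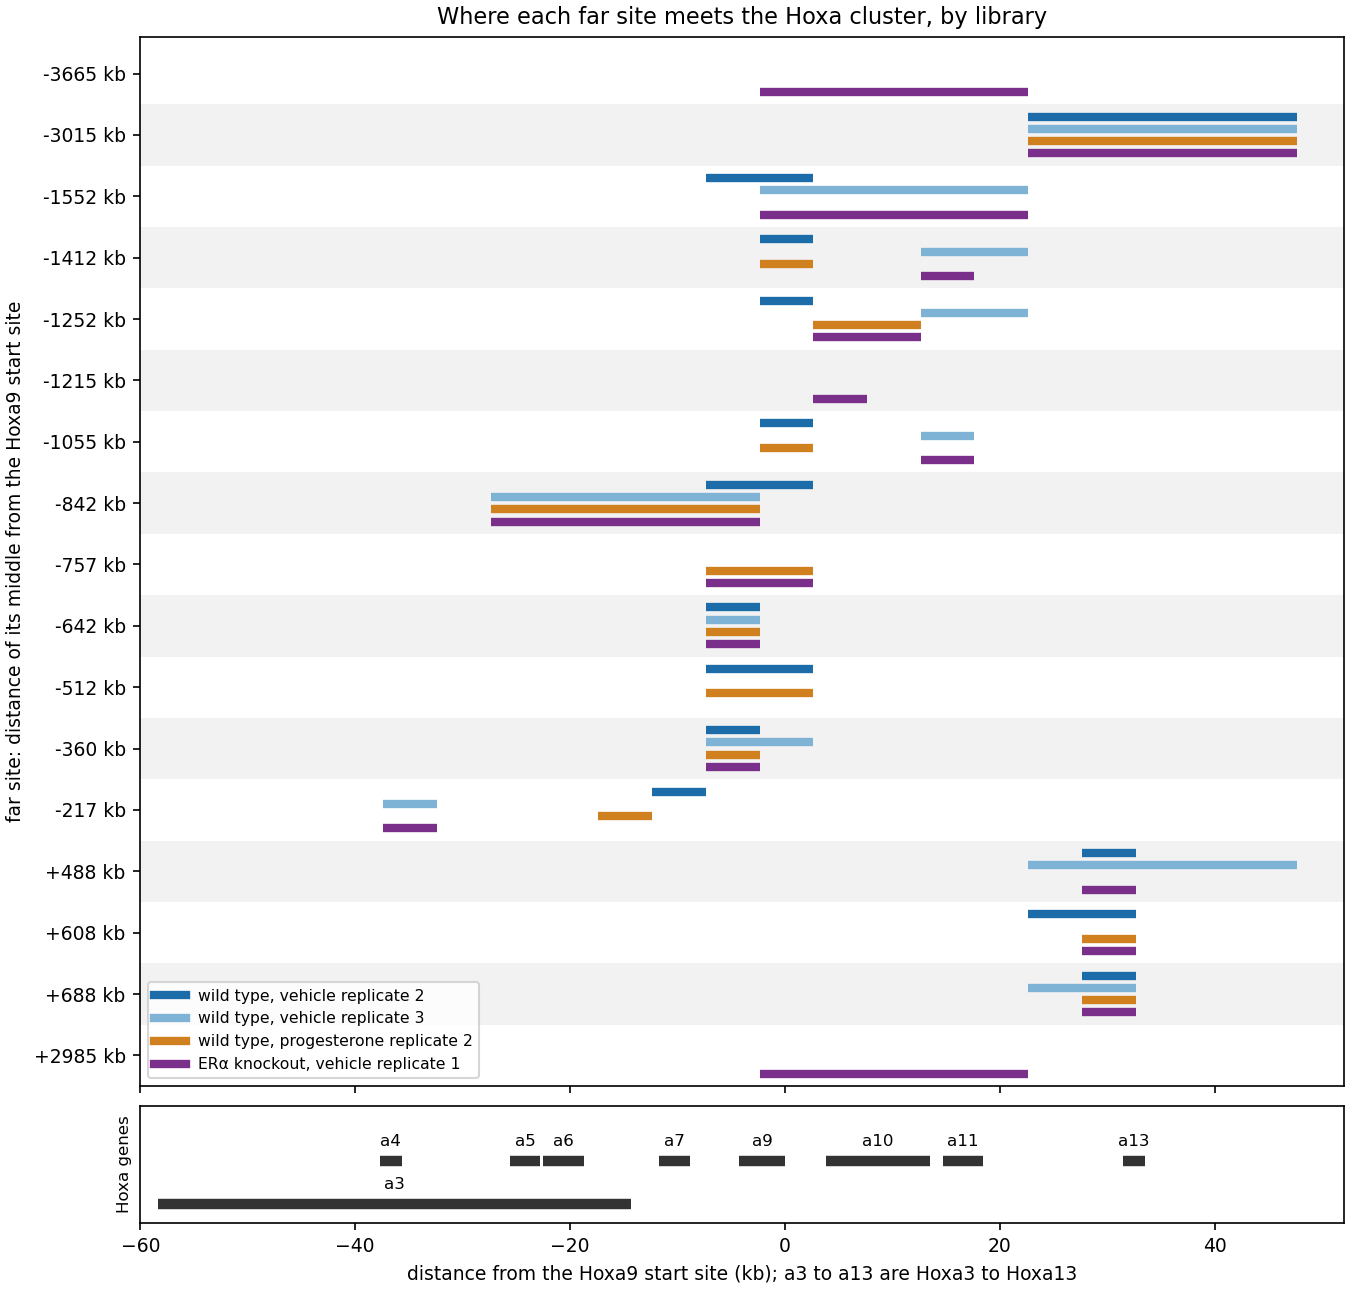
Cluster-side anchor of each loop (bars as wide as the bin) by far site and library; the horizontal axis is the distance from the Hoxa9 start site in kb, rows are far sites from lowest to highest coordinates, labelled by distance, and the strip below shows the Hoxa genes. Bars of the 3 rows from 50810001, 50970001 and 51170001 are split between Hoxa9 and Hoxa10 or Hoxa11, while the row of Snx10 stays at 52220001 in every list.

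The farther a far site lay on the Skap2 side, the closer to Hoxa13 its cluster anchor tended to be, so that loops were nested. Over the loops under 2000 kb, Spearman's rho between far and cluster positions was -0.76 over 9 loops of vehicle replicate 2 and -0.75 over 8 of vehicle replicate 3. It was -0.72 over 9 progesterone loops and -0.81 over 10 knockout loops. The loops of a library share its bins and neighbours, so these are descriptions. Nesting was common elsewhere: in 115 kb windows with 8 or more loops to 1 side the median rho was -0.5, -0.36, -0.57 and -0.41 over 63, 3, 18 and 145 windows of the 4 lists. Of these windows 27.0%, 0.0%, 33.3% and 19.3% were at -0.7 or below, so the nesting was not particular to Hoxa.

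With the loops beyond 2000 kb included, rho over the Skap2-side loops was -0.83, -0.83, -0.8 and -0.82 in vehicle replicates 2 and 3, progesterone and the knockout. A site at 49200001 to 49225000, over the starts of Igf2bp3, an RNA-binding protein gene, and D030074P21Rik, was looped to 52250001 to 52275000, over Hoxa13, in all 4 libraries in 25 kb bins. It was the only Skap2-side site whose cluster anchor overlapped Hoxa13: of 31 Skap2-side loops in 5 or 10 kb bins, 0 overlapped that gene. The 25 kb bin runs past the window and also covers 52265001 and 52270001, where other loops had anchors. It cannot tell these positions from Hoxa13. The knockout alone had a loop from 48550001 to 48575000, over Lrrc61 and Rarres2, and a loop on the other side from 55200001 to 55225000, over the start of Mindy4. Both ended in the 25 kb bin from 52225001 to 52250000, which covers Hoxa9, Hoxa10 and Hoxa11 and cannot tell them apart.

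On the Jazf1 side the cluster end of the loops was Hoxa13, the last gene of the cluster, in 10 of 11 loops, the exception being the Mindy4 loop. In 5 kb bins the anchor was 52255001 to 52260000, which holds the end of Hoxa13 and stops short of its start at 52260880. The site at 52910001 to 52920000, in Jazf1, a zinc finger gene, was looped to Hoxa13 in all 4 libraries. A second site in Jazf1, at 52830001 to 52840000, was looped to Hoxa13 in vehicle replicate 2, progesterone and the knockout. In vehicle replicate 3 a loop from the same site ended at 52265001 to 52270000, just past the window and over the end of Hottip, a noncoding RNA gene next to Hoxa13. The site at 52700001 to 52730000, in Tax1bp1, an autophagy receptor gene, was looped to Hoxa13 in both vehicle lists and the knockout. In vehicle replicate 3 the anchor was the 25 kb bin from 52250001 to 52275000, which also covers positions past the window. After progesterone the loop of this site ended at 52270001 to 52275000. With these loops just outside the window counted, the 3 sites were looped to the Hoxa13 end in every library. The other loops with an anchor within 20 kb of the window and none inside it ran from 52270001 to Hibadh at 52570001 or 52575001, 1 in each of the 4 lists.

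Loops inside the cluster were few. Vehicle replicate 2 listed a 50 kb loop from 52150001 to 52200001, over Hoxa5 and Hoxa6, and the knockout a 35 kb loop from 52155001 to 52190001, over Hoxa4. The upper anchors are 5 kb apart at their nearest edges, and the lower ones lie below Hoxa3.

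By gene, counting loops with an anchor over any part of it, Hoxa9 had 8 and 4 in vehicle replicates 2 and 3, 7 with progesterone and 7 in the knockout. Hoxa10 had 0, 4, 1 and 7, and Hoxa11 had 0, 4, 0 and 5. By this count Hoxa9 led in vehicle replicate 2 and after progesterone and was level with Hoxa10 in the other lists. Hoxa10 and Hoxa11 were low in vehicle replicate 2 and progesterone and higher in vehicle replicate 3 and the knockout. When a gene within 5 kb of an anchor also counted, Hoxa10 had 6, 5, 5 and 8, with no such split, and Hoxa11 had 2, 7, 2 and 7. By this wider count Hoxa7 had 6, 3, 6 and 4. Hoxa13 had 4, 3, 3 and 4. With anchors over the gene alone, Hoxa7 had 1 in each list, as had Hoxa5 and Hoxa6. Hoxa4 had 0, 1, 0 and 2 and Hoxa3, whose longest transcript spans 44.01 kb and runs over Hoxa4 to Hoxa6, had 1, 2, 2 and 3. Neighbouring genes share anchors, and 12 of the 54 loops were in 25 kb bins that cover several genes. Without those (an alternative chosen after seeing the data), Hoxa9 had 8, 2, 6 and 3, Hoxa10 had 0, 3, 1 and 4, and Hoxa11 had 0, 3, 0 and 2. The outermost start sites lay in an anchor for 6, 2, 4 and 4 loops at Hoxa9, 0, 4, 0 and 5 at Hoxa10, whose other start is given above, and 0, 3, 0 and 3 at Hoxa11. The knockout anchors over the Hoxa11 start were all 25 kb bins.

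To set the shifts against those of other loops, loops of 2 libraries were paired when the midpoints of 1 anchor lay within 10 kb and those of the other within 50 kb, and an anchor was counted as moved at 10 kb or more. From vehicle replicate 2 to vehicle replicate 3, 5 of 8 Hoxa cluster-side anchors had moved, where 16.4% of 16702 paired anchors had over the genome. The Hoxa moves from vehicle replicate 2 were by 15 to 17.5 kb toward Hoxa13 at 50810001, 50970001 and 51170001, by 25 kb toward Hoxa3 at 52005001, and by 12.5 kb at 52830001, whose loop in vehicle replicate 3 ended just past the window. From vehicle replicate 2 to the knockout 4 of 11 had moved (12.3% of all), and from vehicle replicate 3 to progesterone 4 of 9 (13.1%). From progesterone to the knockout 3 of 10 had moved (12.4%). From vehicle replicate 2 to progesterone 1 of 10 had moved (14.4%), the Tax1bp1 loop that ended past the window, and from vehicle replicate 3 to the knockout 1 of 9 (13.2%).

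The shares above the genome's were thus those between 1 library of the pair vehicle replicate 2 and progesterone and 1 of the pair vehicle replicate 3 and knockout, and the shift between the vehicle replicates was as large as any between conditions. Vehicle replicate 2 and progesterone share the number 2 in their labels, and whether that marks a common day or preparation is not given. These pairs reuse the same few far sites and libraries, so they are not independent. Bin sizes also differ between lists: among pairs of the same bin size, 2 of 4 anchors had moved between the vehicle replicates. From vehicle replicate 2, 1 of 8 had moved to progesterone and 3 of 8 to the knockout. From vehicle replicate 3, 3 of 6 had moved to progesterone and 1 of 6 to the knockout. From progesterone to the knockout 3 of 10 had. No share over all loops was counted for pairs of the same bin size. For loops over 500 kb the genome's shares were 16.1% between the vehicle replicates and 12.8% from vehicle replicate 2 to the knockout, so they were close to those over all loops.

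**Figure D3:**
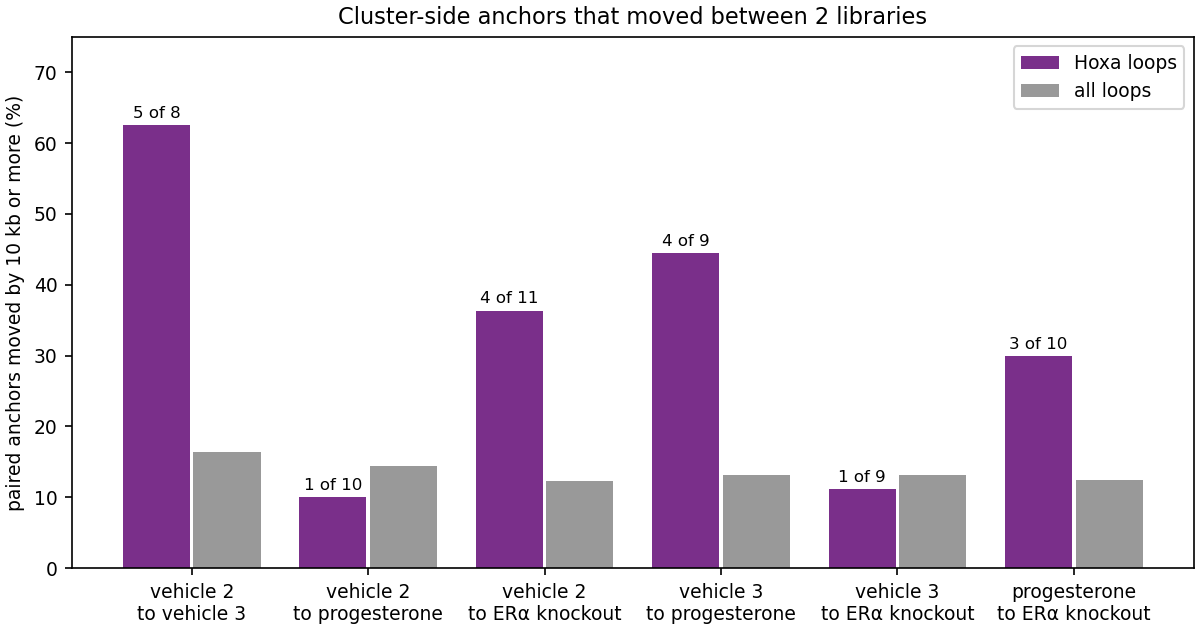
Share of paired anchors that moved by 10 kb or more between 2 libraries, in percent, for cluster-side anchors of Hoxa loops (purple, with counts) and for all loops (grey). The counts are 5 of 8 between the vehicle replicates and 1 of 10 from vehicle replicate 2 to progesterone.

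Gained and missing loops were then counted. A loop counted as matched if both its anchors, each widened by 10 kb at either edge, were overlapped by the anchors of 1 loop in the list it was compared with. Of the 14 Hoxa loops of vehicle replicate 2, 5 were matched in all of the other lists (39.0% of all its loops). They ran from Igf2bp3 to the 25 kb bin over and past Hoxa13, from 51370001 and from Snx10 to Hoxa9, and from both Jazf1 sites to Hoxa13. Between the vehicle replicates themselves, 6 of 14 Hoxa loops of replicate 2 had no match in replicate 3 (50.8% overall) and 4 of 11 of replicate 3 had none in replicate 2 (14.3% overall).

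After progesterone, 3 of the 8 Hoxa loops of vehicle replicate 2 that were matched in replicate 3 had no match (15.1% of 8061 such loops overall). They were the loop from beside Npvf, the loop from the lower end of Skap2 and the Tax1bp1 loop. For the last of these and for Skap2, the loop that vehicle replicate 3 had at the site did have a match after progesterone, so the count turns on which replicate gives the coordinates. By 1 vehicle list at a time, 4 of 14 loops of replicate 2 (41.8% overall) and 4 of 11 of replicate 3 (21.6% overall) had no match. With 25 kb added to the anchors the count of 3 became 1, a setting at which no share over all loops was counted. In the other direction 1 of 12 progesterone loops, that of Hnrnpa2b1 to Hoxa9, was found in neither vehicle list (14.8% overall). Against vehicle replicate 3 alone the count was 5 (37.4% overall), and against vehicle replicate 2 alone it was 2 (19.0% overall).

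In the knockout, 0 of the same 8 loops had no match (10.0% overall). Without vehicle replicate 3 the count was 4, of the 14 loops of vehicle replicate 2 (25.7% overall), and without vehicle replicate 2 it was 1, of the 11 of vehicle replicate 3 (15% overall). Among the 17 Hoxa loops listed for the knockout, 4 had no vehicle match (40.6% overall), namely those at Lrrc61 and Rarres2, at 51010001, at Hnrnpa2b1 and Cbx3, and at Mindy4. Without vehicle replicate 3 that count was 7 (44.1% overall), and without vehicle replicate 2 it was 6 (63.3% overall). Set against each other, 10 of 17 knockout loops had no match after progesterone (56.3% overall) and 5 of 12 progesterone loops had none in the knockout (19.0% overall). These shares rest on a handful of loops and were not tested.

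Some pairs of far sites were looped to each other as well as to the cluster. Loops between far sites were not used to choose the members, but every far site is a loop anchor by that choice. No share was counted for other pairs of anchors at like distances, so the counts below are descriptions without a background. Of 78 pairs of Skap2-side sites, 17, 13, 16 and 13 were joined by a loop in vehicle replicates 2 and 3, progesterone and the knockout when 10 kb was added to the sites, and 12 pairs were joined in all 4. The site at 51170001 was joined to the sites at Igf2bp3, beside Npvf, at C530044C16Rik, 50970001 and 51010001 and at the Skap2 start in every library. With the added 10 kb, the site at 51010001, looped to Hoxa10 in the knockout alone, was joined to 50810001, 50970001 and 51170001 in all 4. Without it, 0, 2, 1 and 2 loops other than those to the window had an anchor on this site, in the same library order. In vehicle replicate 2 its joins therefore rested on anchors beside the site, as did some of its joins in each of the other lists. Of 6 pairs of Jazf1-side sites 2, 1, 1 and 2 were joined. Of 52 pairs with a site on each side, 0, 0, 1 and 0 were joined, the exception being 51170001 with Tax1bp1 after progesterone. Loops under 3000 kb that passed over the whole window numbered 1, 0, 1 and 1.

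Among the Hox clusters, Hoxa was like Hoxd in number and length of loops and unlike it in direction. Hoxd had 17, 9, 14 and 21 loops with median lengths of 700, 610, 800 and 875 kb, Hoxb had 9, 7, 8 and 8 loops with medians of 117.5 to 235 kb, and Hoxc had 4, 5, 4 and 5 loops with medians of 175 to 182.5 kb. At Hoxd 6, 3, 6 and 9 loops ran to lower and 11, 6, 8 and 12 to higher coordinates, where Hoxa had 10, 9, 10 and 12 to lower and 3, 2, 2 and 4 to higher. The gene order of Hoxd is turned against that of Hoxa on the map, with Hoxd13 at the lower end, so in both clusters the side with more loops was the one away from Hoxa13 or Hoxd13. At Hoxa the median cluster anchor of Skap2-side loops lay 65.2% to 76.1% of the way through the window and that of Jazf1-side loops at 93.5% to 94.6%. At Hoxd the median of loops to lower coordinates, the Hoxd13 end, was at 2.2% to 6.5%, and that of loops to higher coordinates was at 33.7% to 37%. Between the vehicle replicates 4 of 10 paired anchors had moved at Hoxd, 1 of 4 at Hoxc and 0 of 6 at Hoxb, against 5 of 8 at Hoxa. These differences between clusters were not tested.

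**Figure D4:**
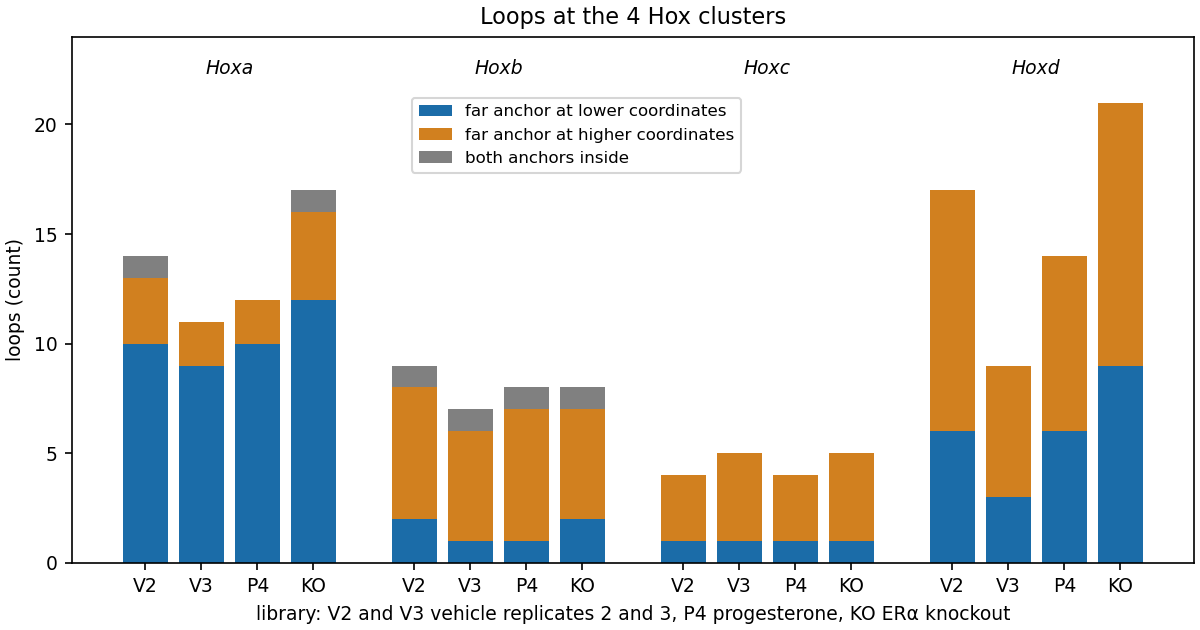
Number of loops with an anchor in each Hox cluster by library, stacked by the side of the far anchor. Hoxa has most of its loops to lower coordinates (10, 9, 10 and 12) and Hoxd most of them to higher coordinates (11, 6, 8 and 12).

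The other genes of the pathway were counted by whether any anchor overlapped the gene. Of 28 other Hox genes, 18, 21, 19 and 17 were at an anchor in vehicle replicates 2 and 3, progesterone and the knockout, and Hoxd9 and Hoxd13 were among 15 at anchors in all 4. Of 9 genes for Hox cofactors (the Meis, Pbx and Pknox genes), 6, 6, 5 and 7 were. Of 17 Polycomb and Trithorax genes, which keep Hox genes silent or active, 12, 10, 9 and 12 were, with Eed and Kmt2a among 6 in all 4 and Suz12 in none. Of 13 partners in patterning of the tract, 11, 8, 8 and 11 were, with Wnt5a, Wnt7a and Emx2 in all 4. Over all 21631 protein-coding genes the shares were 44.6%, 33.5%, 37.7% and 52.9%. Long genes meet an anchor more often and neighbours share anchors, and neither was adjusted for.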

How the data were processed

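Hi-C libraries of mouse uterus used a kit from Arima, per the labels' protocols. The authors deposited for each library a list of loops, 6 columns with no header and no unit beyond positions in bases (coordinates, an other kind of value); Juicer 1.5.6 and mm10 are named per the submitters' processing notes. The loop caller and its thresholds: not given in the sources used here. Starts count from 0 in the files and are written from 1.

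Loops entered when either anchor overlapped the window. Matching, pairing and moves used 10 kb, 10 kb and 10 kb as described with the results. Genes and promoters came from RefSeq tables of GRCm38.p6. The members, gene lists and settings were chosen with earlier results of these data known, so no test was made on them. The text names the Hoxa genes, genes under far anchors, the genes flanking far anchors in no gene for sites looped in all 4 libraries, and up to 3 names a list; flanking genes elsewhere serve as landmarks. Genes in the window below Hoxa3 are not reported here.

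Pairing and matching were checked by simulation on the 16387 loops of vehicle replicate 2. The list was compared with an altered copy of itself, with the same bins and no loops missing. The check therefore covers the working of the method, and false moves from unlike bins or missing loops were not tested. Anchors moved by 15 kb were called moved in 100% of cases and unmoved anchors in 0.0%. Unmoved loops found their match in 100%, and loops displaced by 2000 kb found one in 0.2%. Python 3.11.15, numpy 2.4.6, pandas 2.3.3, scipy 1.17.1 and matplotlib 3.10.9 were used.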

Additional observations from a re-analysis of the deposited data

How the results depend on the processing

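No paired analysis was possible because the groups compared share fewer than 2 replicate numbers. Counting anchors wholly inside the window kept every count within 1.5 times its value. In the order vehicle replicates 2 and 3, progesterone and knockout, the window had 8, 3, 7 and 10 loops in 5 kb bins alone and 5, 4, 3 and 2 in 10 kb bins alone. The count in all 4 libraries, 5, was 3 when anchors were not widened (0 kb), 11 when widened by 25 kb, 1 for 5 kb bins and 0 for 10 kb bins. Vehicle loops not called after progesterone, 3, numbered 0 unwidened, 1 at 25 kb and 0 for 5 or 10 kb bins alone. Progesterone loops in neither vehicle list, 1, numbered 3 unwidened, and knockout loops in neither, 4, numbered 7 unwidened and 1 for 10 kb bins. No share over all loops was counted for other widenings or for single bin sizes. Whether all loops change in the same way with these settings is therefore not known. Without vehicle replicate 2 or 3 in turn, progesterone loops in neither vehicle list numbered 2 to 5, vehicle loops not in the knockout 1 to 4, and knockout loops in neither 6 to 7; vehicle loops not called after progesterone numbered 4 without either. Among pairs of the same bin size 2 anchors had moved between the vehicle replicates, and with far anchors within 25 kb 2 had moved from vehicle replicate 2 to progesterone. At 5 kb or more, 3 had moved from vehicle replicate 2 to progesterone and 2 from vehicle replicate 3 to the knockout. At 20 kb or more 1 had moved between the vehicle replicates, from vehicle replicate 2 to the knockout, from vehicle replicate 3 to progesterone and from progesterone to the knockout, and 0 in the other pairs. For moves too, shares over all loops were counted at the main settings alone. Bin size and the number of loops called limit each list, and without contact counts the causes of these changes were not tested.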
